A study of Mus musculus with 32 samples.

Results

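The 10 gene models Gm26870, Gm10800, Gm10801, Gm10715, Gm10717, Gm10718, Gm10720, Gm10721, Gm10722 and Gm11168 are annotated over repeated, satellite-like DNA of the mouse genome. They are 10 of the 49671 genes counted in the vomeronasal organ (VNO), the organ that detects pheromones. The members were chosen by name after their counts in the libraries of the 4 strains had been seen, so that their levels by strain are given as a description and were not tested. The libraries came from individual mice of the inbred strains B6 (labelled C57/BL6), 129 (129S6/SvEv), SJL (SJL/J) and SWR (SWR/J), with 4 females and 4 males of each strain at 42 days of age. All 32 mice were untreated as far as the labels say, and the tissue was the whole vomeronasal epithelium, so that fewer cells of a type and less RNA per cell cannot be told apart. Total RNA was depleted of ribosomal RNA and read as stranded pairs, and the authors counted pairs that the aligner placed at a single position.

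The centromeres of mouse chromosomes are flanked by long arrays of the major (gamma) satellite, a short AT-rich unit repeated head to tail. These arrays form the pericentric heterochromatin, which is packed with the heterochromatin protein HP1 and with histone H3 methylated at lysine by the Suv39h enzymes, and most copies are missing from the assembled genome. A read from such a repeat can come from RNA or from DNA left in an RNA preparation, and counts of reads cannot tell these apart.

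The 8 members on chromosome 9 lie side by side at its proximal end (GRCm38, GENCODE M21). Gm26870, a lincRNA model on the minus strand, spans chr9:3000282-3038313. The 7 members on the plus strand fall on the same stretch and are annotated as protein coding, from Gm10722 at chr9:3000922-3002330 and Gm11168 at chr9:3003346-3006948 to Gm10715 at chr9:3036877-3038316. Between these are Gm10721 (chr9:3013140-3014344), Gm10720 (chr9:3015654-3017210), Gm10718 (chr9:3023547-3025218) and Gm10717 (chr9:3025417-3033289). The other 2 lie on chromosome 2, Gm10801 on the plus strand at chr2:98662237-98664083 and Gm10800 on the minus strand at chr2:98666547-98667301. No protein function is given for the 9 coding models here.

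A unit of 234 bases was repeated head to tail in Gm26870. Within the transcript Gm26870-202, 95.9% of bases were identical to the base 234 positions further on, 95.6% at 468, 95.5% at 702 and 96.1% at 936 positions, against a median of 30.8% over all offsets. Units 1, 2 and 4 of this transcript are shown because they display the repeat itself. Capitals mark bases that differ from the first unit.
Gm26870, unit 1, bases 1 to 234: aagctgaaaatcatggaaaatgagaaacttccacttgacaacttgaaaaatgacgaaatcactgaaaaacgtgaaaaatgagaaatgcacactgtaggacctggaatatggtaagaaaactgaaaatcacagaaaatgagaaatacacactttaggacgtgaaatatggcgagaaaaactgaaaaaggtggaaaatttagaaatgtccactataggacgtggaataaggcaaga
Gm26870, unit 2, bases 235 to 468: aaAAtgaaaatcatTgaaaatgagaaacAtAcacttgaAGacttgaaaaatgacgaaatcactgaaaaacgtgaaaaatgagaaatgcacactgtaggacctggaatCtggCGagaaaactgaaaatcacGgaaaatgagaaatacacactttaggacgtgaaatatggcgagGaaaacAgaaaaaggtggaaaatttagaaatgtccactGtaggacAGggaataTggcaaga
Gm26870, unit 4, bases 703 to 936: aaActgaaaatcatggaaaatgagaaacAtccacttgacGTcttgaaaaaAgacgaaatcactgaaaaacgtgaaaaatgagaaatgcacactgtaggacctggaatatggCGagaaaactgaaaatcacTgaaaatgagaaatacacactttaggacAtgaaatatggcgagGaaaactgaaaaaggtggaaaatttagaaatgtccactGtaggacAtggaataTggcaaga
The second unit differed from the first at 17 positions and unit 4 at 13.

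The same unit was found in the models on the other strand and on the other chromosome. The closest stretches of Gm10800, the member with the most reads, and of Gm10722 are shown on the strand opposite to their transcripts, with capitals where they differ from the first unit of Gm26870 turned to the same phase.
Gm10800, bases 292 to 525: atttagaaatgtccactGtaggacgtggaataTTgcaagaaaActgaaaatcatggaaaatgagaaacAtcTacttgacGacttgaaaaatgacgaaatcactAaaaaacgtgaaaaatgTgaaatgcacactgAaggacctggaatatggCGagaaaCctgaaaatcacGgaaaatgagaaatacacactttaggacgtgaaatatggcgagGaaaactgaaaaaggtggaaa
Gm10722, bases 255 to 488: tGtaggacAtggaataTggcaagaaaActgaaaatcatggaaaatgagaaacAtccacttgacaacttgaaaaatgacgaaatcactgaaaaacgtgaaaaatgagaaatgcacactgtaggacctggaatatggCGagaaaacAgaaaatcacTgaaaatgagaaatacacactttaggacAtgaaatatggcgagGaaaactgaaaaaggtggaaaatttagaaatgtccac
Gm10800 differed at 15 of the 234 positions and Gm10722 at 11. Aligned to a consensus of the units of Gm26870, the longest transcripts of the other members matched in the opposite orientation, with 90.7% (Gm10801) to 97.7% (Gm10718) identity over at least 98.4% of their length. The best self-match of the longest transcripts was sought without gaps and only in a limited range of offsets that held 234 bases. Within that range the best offset was 234 bases in 6 of these 9, 237 in Gm11168, 231 in Gm10801 and 225 in Gm10800. Over these 9, 52.8 to 67.6% of bases were identical at the best offset. The A and T content of the transcripts was 64.0 to 65.7%. Of the words of 25 bases in each member's transcripts, 44.5% (Gm10801) to 95.3% (Gm10720) were also found in another annotated gene. How many pairs fitted more than one of these models, and so were not counted, was not tested, and the count of a single member is uncertain. The words were shared with just 3 annotated genes outside the members, which were Gm10719, Gm17535 and Gm21738.

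Over all libraries 744700 reads were counted on the members, and Gm10800 took 67.8% of them. Gm26870 took 18.7%, Gm10801 6.21%, Gm10718 3.52%, Gm11168 1.66% and Gm10722 1.46%, while each of the other 4 took under 0.5%. Per kilobase of exon the mean level in a library was highest for Gm10800, at 23889.9 reads, followed by Gm10801 at 2870 reads, Gm26870 at 1618 reads and Gm10718 at 1203 reads. The lowest level per kilobase was that of Gm10720, with 8.31 reads, and this model had no read in 10 libraries.

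The 129 mice had few reads on the members and the other strains had many, with a wide spread between mice. In 129 the summed level was 43.1 reads per 1000000 reads on genes (rpm) in the lowest library, 49.2 in the median and 65.1 in the highest. In B6 it was 107, 3078 and 22694 rpm, in SJL 333, 1022 and 4531 rpm, and in SWR 94.7, 1086 and 6409 rpm. B6 females 2 and 4 stood apart with 21622 and 22694 rpm, which was 2.16% and 2.27% of all their reads on genes. B6 female 1 (107 rpm) and SWR male 4 (94.7 rpm) lay closer to the 129 mice than to the next mouse of their own strain. The 8 groups of strain and sex each had an index sequence of their own, so that index and group cannot be told apart.

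**Figure D1:**
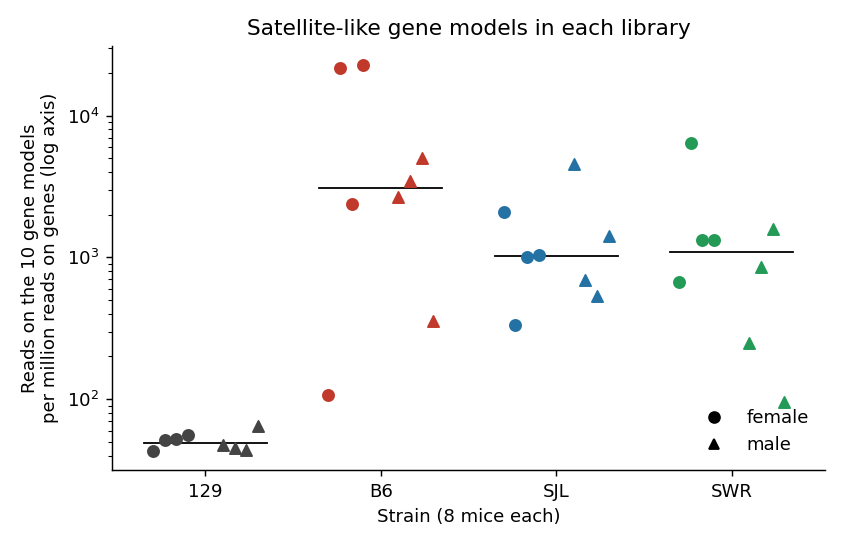
Reads on the 10 gene models in rpm (log axis) in each of 32 libraries by strain, with circles for females, triangles for males and lines for strain medians. The 129 libraries lie between 43.1 and 65.1 rpm, and B6 libraries between 107 and 22694 rpm.

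Gm26870 showed this pattern in the normalized counts. In 129 its lowest, median and highest normalized counts were 123, 154 and 237, with a mean of 163 ± 35.7 (SD, n = 8). In B6 they were 274, 7568 and 38642, with a mean of 13662 ± 15422 (SD, n = 8). In SJL they were 611, 2628 and 9884, with a mean of 3220 ± 2950 (SD, n = 8), and in SWR 280, 2740 and 13792, with a mean of 3657 ± 4304 (SD, n = 8). The 129 mice did not overlap with mice of another strain, although the gap to B6 female 1 was small. The order by median was 129, SJL, SWR and B6, in which SJL, SWR and B6 overlapped and their means differed by less than the SD of B6. Without B6 females 2 and 4 the B6 mean was 5591, and without SWR female 2 the SWR mean was 2209.7.

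Gm10800, the coding model on chromosome 2, had the highest normalized counts. Its levels were 281, 358 and 406 in 129 (lowest, median and highest of 8 mice), and 809, 21132 and 184649 in B6. In SJL the same values were 2502, 7224 and 35266, and in SWR 652, 8018 and 48280. The highest B6 mouse thus had a normalized count 228 times that of the lowest, whereas within 129 this ratio was 1.45. Gm10801, which lies beside it, was at 21.9 to 49.8 in 129, 82.1 to 14389 in B6, 245 to 3217 in SJL and 71.9 to 4489 in SWR.

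The plus-strand models of chromosome 9 were also low in 129 and high in B6, at lower normalized counts. Gm10718 ranged from 15.3 to 31.0 in 129 and from 44.8 to 7860 in B6, Gm11168 from 4.37 to 14.0 and from 19.2 to 4575, and Gm10722 from 1.09 to 11.1 and from 14.9 to 3169. Gm10717 did not exceed 4.43 in 129 and reached 1093 in B6, and Gm10721 did not exceed 3.57 and reached 252. Gm10715 was at 0 in every 129 mouse and reached 250 in B6, 33.9 in SJL and 55.8 in SWR. Gm10720 was the only member at 0 in mice of all 4 strains, with a highest normalized count of 70.2 in B6.

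**Figure D2:**
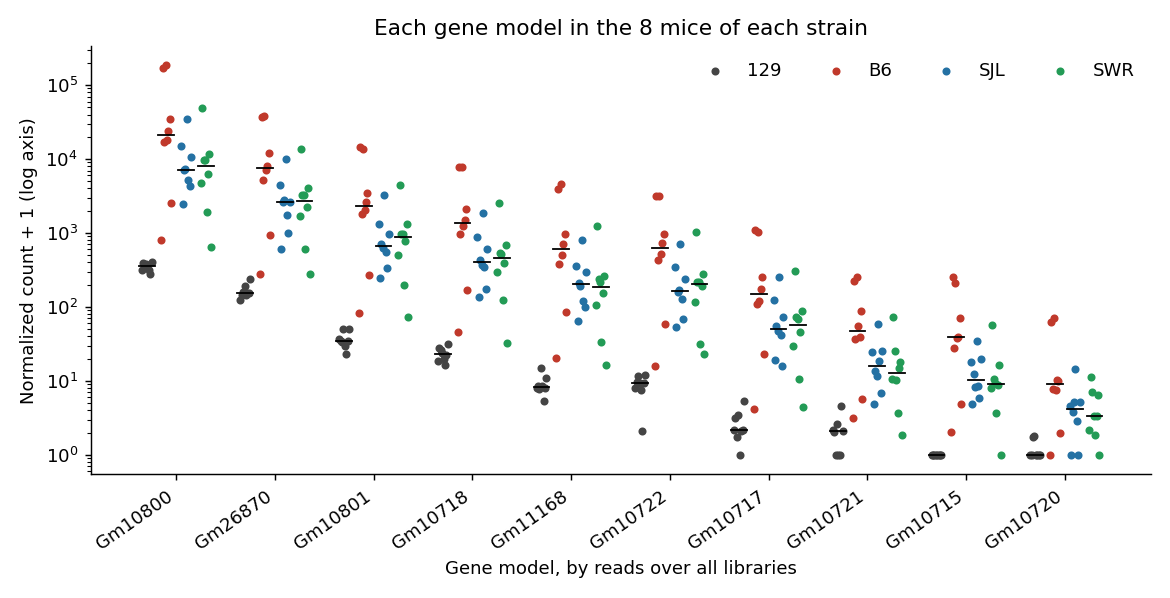
Normalized count + 1 (log axis) of each gene model in the 8 mice of each strain, with models ordered by their reads and black lines for medians. In Gm10800 the 129 mice lie between 281 and 406, and the B6 mice between 809 and 184649.

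The shares of the members in the member reads varied far less than the level itself. Gm10800 made up 59.6 ± 3.72% of the member reads in 129 (SD, n = 8 here and below), while B6 had 65.5 ± 4.29%, SJL 66.8 ± 3.12% and SWR 63.9 ± 2.07%. Gm26870 made up 27.5 ± 2.96% in 129, while B6 had 20.4 ± 3.27%, SJL 19.7 ± 2.85% and SWR 22.1 ± 1.92%. In B6 females 2 and 4, which had the most reads, the ratio of Gm10800 to Gm26870 reads was 4.61 and 4.78, and in 129 it was 1.72 to 2.71. High ratios were also found at low levels, with 4.33 in SJL male 3 (531 rpm) and 4.10 in SJL female 2 (333 rpm). Both strands of the chromosome 9 stretch were read. The 7 plus-strand models together had 0.141 to 0.321 reads per read of Gm26870 in 129, 0.311 to 0.444 in B6, 0.290 to 0.473 in SJL and 0.260 to 0.378 in SWR.

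**Figure D3:**
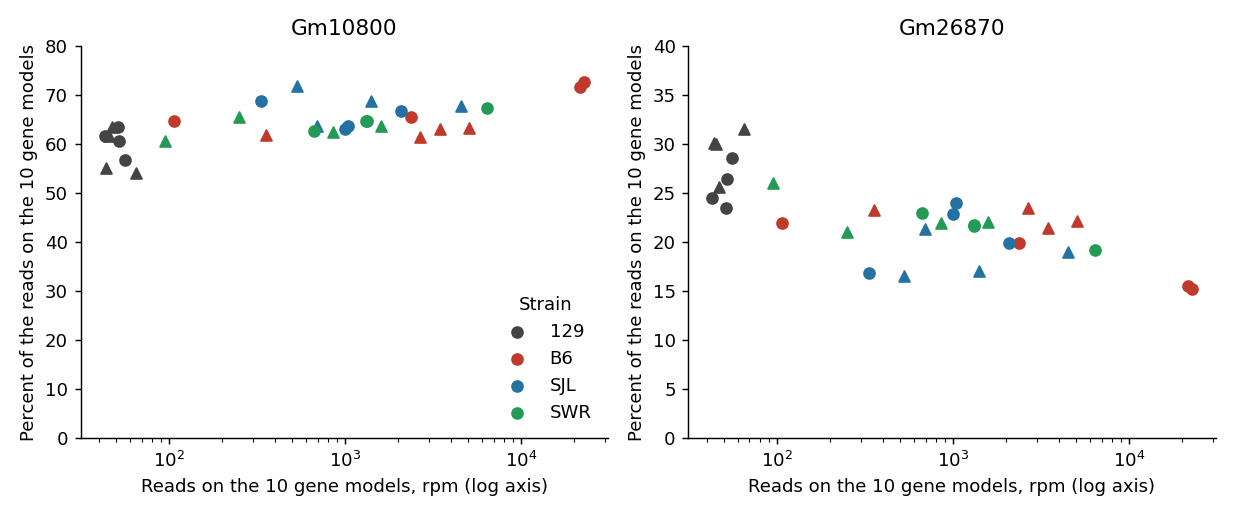
Percent of the reads on the 10 gene models that fell on Gm10800 (left) and Gm26870 (right) against the summed level in rpm (log axis), 1 point per library, with circles for females and triangles for males. Gm10800 lies between 54.1 and 63.5% in 129 and between 60.6 and 72.6% elsewhere, and Gm26870 between 23.4 and 31.6% in 129 and between 15.2 and 23.5% in B6.

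As a measure of background, the rpm on 151 autosomal genes was summed in each library, from families known for use in other tissues. Of the reads on this list 71.1% fell on Pramef8, which had up to 401 reads in a library, and Speer4c had up to 137. The list was therefore also used without these 2 genes, the 2 with over 100 reads in a library, a choice made after seeing the data. This shorter list had 1.05 to 2.67 rpm in 129, 4.01 to 48.8 rpm in B6, 3.27 to 16.5 rpm in SJL and 4.76 to 18.7 rpm in SWR. Genes of skin and hair, the Krtap (keratin-associated) and Lce (cornified envelope) families, had 0 to 0.205 rpm in 129 and 6.66 and 6.07 rpm in B6 females 2 and 4.

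Gm26870 was compared with the background within each strain, over 8 mice (exact permutation test, two-sided, adjusted over 4 strains). Its values in these libraries were known when the members were chosen, so that these p-values are not independent evidence. With the 151 genes Pearson's r was 0.71 in B6 (p = 0.0468, adjusted 0.0623), 0.78 in SJL (p = 0.0238, adjusted 0.0475), 0.84 in SWR (p = 0.00935, adjusted 0.0374) and -0.28 in 129 (p = 0.471, adjusted 0.471). Spearman's rho was 0.74 in B6, 0.79 in SJL, 0.79 in SWR and -0.24 in 129, with adjusted exact permutation p-values of 0.0611, 0.0559, 0.0559 and 0.582. Without the 2 mice farthest from the median background, r was 0.27 in B6, 0.59 in SJL, 0.76 in SWR and -0.28 in 129. In B6 these were females 2 and 4. With B6 female 1 left out, r in B6 was 0.88, and 0.80 without females 2 and 4 as well. With any other B6 mouse left out, r without the 2 farthest mice was -0.10 to 0.39. With this list the value in B6 thus depended on which mice were kept, female 1 among them. With the shorter list r was 0.94 in B6, 0.88 in SJL, 0.89 in SWR and -0.23 in 129, given as a description. Without the 2 farthest mice r was then 0.95 in B6, 0.76 in SJL, 0.83 in SWR and -0.84 in 129. With the Krtap and Lce genes, r without the 2 farthest mice was 0.96 in B6, 0.74 in SJL and 0.92 in SWR. In 129 that value could not be computed.

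**Figure D4:**
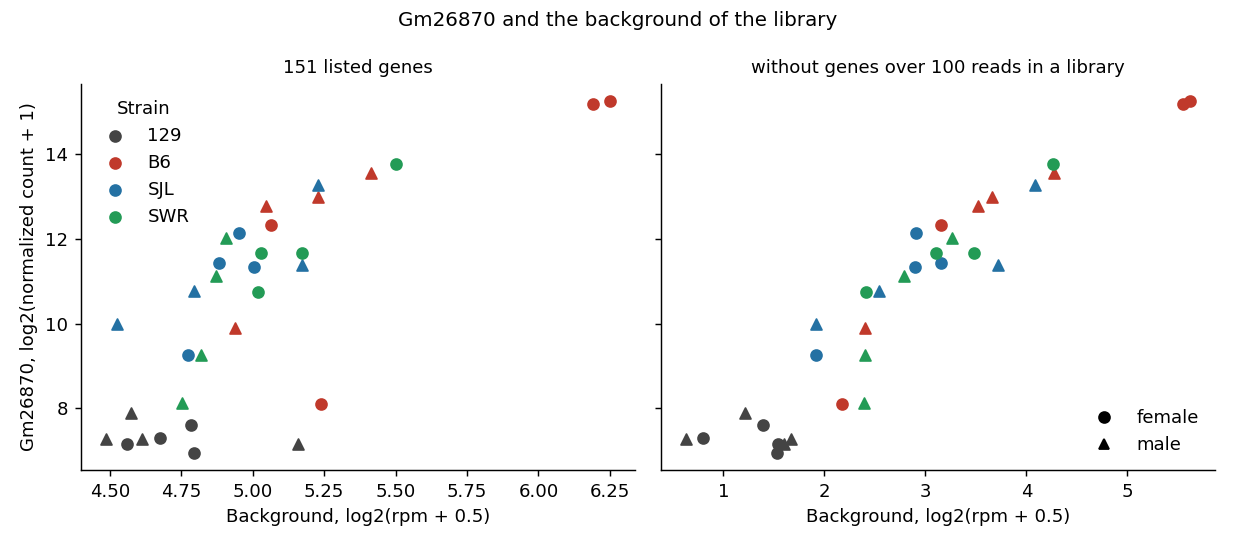
Gm26870 as log2(normalized count + 1) against the background as log2(rpm + 0.5) in 32 libraries (circles females, triangles males), with all 151 listed genes (left) and without the genes over 100 reads in a library (right). B6 female 1 and 129 male 1 lie to the right of the other low libraries in the left panel, and in the right panel they lie among the low libraries.

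Across all genes the slope on the background was fitted in edgeR with strain and sex as covariates. All 10 members rose with it, where 1.03% of the tested genes outside the list did (FDR under 0.05 and slope above 0). The slope in log2 counts per log2 of background was 3.35 ± 0.57 (SE) for Gm26870, 3.72 ± 0.57 for Gm10800 and 3.95 ± 0.47 for Gm11168, with edgeR FDRs of 0.000982, 0.000165 and 2.53e-05. With the shorter list the slopes were 1.60 ± 0.16 for Gm26870, 1.70 ± 0.16 for Gm10800 and 1.71 ± 0.12 for Gm11168, and 2.38% of the tested genes were called. The members were chosen from these libraries with such values known, and the count is not independent evidence of the relation.

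Genes without a single read in the 129 mice and with at most 20 reads in any library were counted by chromosome, a rule set after seeing the data. There were 14276 such genes on autosomes, 1207 on the X and 250 on the Y chromosome. Outside 129, reads on the autosomal ones amounted to 77.2 rpm in SWR male 4, 82.4 rpm in B6 female 1 and 2218 rpm in B6 female 2. A gene entered the list only with a read outside 129, so that libraries with many such reads brought genes into it. B6 female 2 had a read on 7845 of the 14276 autosomal genes. These levels are therefore partly set by the rule and are no separate evidence about the members. For each 100 autosomal reads, the X genes had 3.28 to 3.94 reads in B6 males and 4.31 to 7.63 in B6 females. The values were 3.84 to 4.61 in SJL males and 5.22 to 7.54 in SJL females, and 4.19 to 6.65 in SWR males and 6.87 to 8.12 in SWR females. Females lay above males of the same strain without overlap. The Y genes had 0.716 to 1.20 reads per 100 autosomal reads in males and at most 0.157 in females.

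**Figure D5:**
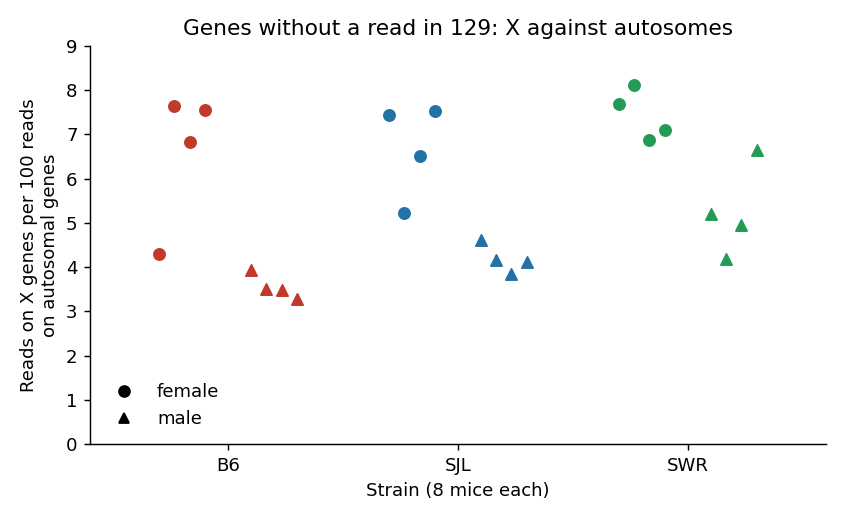
Reads on X genes per 100 reads on autosomal genes, over genes that had no read in 129 and at most 20 in any library, by strain, with circles for females and triangles for males. B6 males lie between 3.28 and 3.94 and B6 females between 4.31 and 7.63.

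Between the sexes none of the 10 members passed (FC above 2 and FDR under 0.01 in edgeR), where 0.0381% of all tested genes did. A count of 0 among 10 is near that share and is no result about the members. None had an edgeR FDR below 0.567. Male minus female LFCs ran from -1.14 ± 0.57 (SE, Gm10720) to -0.68 ± 0.50 (Gm26870). Without B6 females 2 and 4 they ran from -0.09 to 0.16. The Gm26870 normalized counts of B6 females were 274, 37112, 5152 and 38642, and those of B6 males 7027, 8108, 12038 and 944, so that the sexes overlapped.

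Genes whose levels were most like the summed members over the 32 libraries, centred by strain, were the satellite-like models outside the list. Pearson's r of log2 levels was 0.999 for Gm21738 on chromosome 14 (chr14:19415857-19418930, minus strand), 0.959 for Gm17535 and 0.954 for Gm10719, both on chromosome 9 between the members. Next came Gm37985 at 0.945 and Cacna1i, a calcium channel gene, at 0.908, among 18372 genes compared. Gm21738 had 3.70 to 5.66 rpm in 129 and 10.6 to 2361 rpm in B6. By contrast, 4930433N12Rik, which is annotated within 100 kb of the chromosome 9 members, had 115 reads in all libraries together and at most 1.38 rpm.

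Genes for heterochromatin factors were read against the share of all genes. Of 25 listed factors, all tested, 0 rose and 0 fell with the background of 151 genes in edgeR, where 1.03% of all tested genes rose, and 0 differed between the sexes. A count of 0 among 25 is near that share and is no result about these factors. With the shorter list Cenpb, which encodes a protein that binds centromeric DNA, had a slope of -0.12 ± 0.03 (SE, FDR 0.0258) and no other factor was called. With that list 529 of 18378 tested genes fell in edgeR (FDR under 0.05). A count of 1 among 25 is near that share and is no result about these factors either. Of the genes listed for ribosomal RNA, 4 were tested (Rn18s-rs5, Gm26917, Gm42418 and Lars2), too few to be read against the share of all genes. Among these, Gm26917 had a slope of -0.19 ± 0.06 (SE, edgeR FDR 0.0437) on the shorter list, at 1333 to 3782 rpm. Omp, the marker of mature sensory neurons, was at 1331 to 1990 rpm in every library.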

How the data were processed

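RNA of 32 VNO epithelia was purified with Trizol and spin columns, and a DNase step is not given in the sources used here. The authors trimmed the reads with Trim Galore, placed pairs with STAR on GRCm38 (mm10) and deposited the count of uniquely placed pairs per Ensembl gene on the reverse strand. They also deposited a normalized signal, in which each library was scaled by a factor from DESeq2. Reads on genes ranged from 5106398 to 18640871. Groups came from the sample titles. No sample column was left out.

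The members and lists were chosen with earlier results of these data known. Every member was named. Of other genes, the 5 most like the summed members and listed genes were named. Genes were tested with edgeR 4.0.16 (TMM, filterByExpr over 8 groups, quasi-likelihood F test, Benjamini-Hochberg FDR over all tested genes). Standard errors were taken as the absolute LFC over the square root of F. Strains were compared with sex, and sexes with strain, as covariate. The background covariate was log2(rpm + 0.5). Steps were tested on simulated data. Sequences came from GENCODE M21 transcripts. Alternatives were DESeq2 1.42.0, its size factors, no filter, a replicate block, other background lists and each library left out. P-values cover the spread between these mice.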

Additional observations from a re-analysis of the deposited data

Results flagged for a closer look

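Among the 80 groups of 4 mice (10 members in 8 groups of strain and sex), 10 held a mouse whose gap to the next took more of the group's range than Dixon's 95% critical value. For values with a normal spread chance gives about 1 in 20 groups. The counts were used without a log, so that this rate may not hold for them, and the members share libraries and sequence. Groups at 0 in all 4 mice, such as those of Gm10715 in 129, could not be flagged. In 8 of the 10 the mouse was SWR female 2, with normalized counts of 55.8 for Gm10715, 307 for Gm10717, 2508 for Gm10718, 1029.9 for Gm10722, 48279.95 for Gm10800, 4489 for Gm10801, 1233 for Gm11168 and 13792 for Gm26870. The other 2 were Gm11168 in 129 female 4, with 14.0, and Gm26870 in 129 male 4, with 237. SWR female 2 also had the highest background in SWR, at 18.7 rpm on the list without genes over 100 reads. Its part in these values was not tested.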

How the results depend on the processing

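The sex count of 7 genes stayed within 1.5 times under every alternative run. The strain count is that of genes with FC above 2 and FDR under 0.05 in any pair of strains in edgeR. It was 3632 of 18382 tested genes and 12873 of 44957 without a filter on low counts. With a library left out it was 3677 to 4069, and with the background of the shorter list as an added term 3186 of 18382. Of 18378 genes tested, 189 rose with the background. The count was 5204 of 44820 without a filter, 380 of 18382 with the Krtap and Lce list and 477 of 18378 with detected genes at equal depth. It was 437 of 18378 without the genes over 100 reads and 457 of 18943 without B6 females 2 and 4. With a library left out the count was 130 to 447. It moved by over 1.5 times without B6 female 1 (447), SJL female 4 (304) or B6 male 2 (297). The same held without 129 male 4 (294), 129 male 3 (284) or SWR female 3 (284). The count also rose in most other fits with a library left out, as to 280 without 129 female 1. It fell to 130 without B6 female 2 and to 185 without SWR female 2. The filter on low counts kept more genes in each of these fits than with all libraries. All 10 members were called in each of these fits on the background. With the replicate block the counts were 3591, 7 and 184. Of the same-numbered pairs of mice 22 of 112 correlated over 0.1, against 74 of 336 other-numbered pairs. With 4 replicate numbers, 5 of 32 mice were closest to their own number, so that no pairing by number was seen.

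The LFC between the sexes turned to 0.0931 (Gm10715), 0.0846 (Gm10720) and 0.156 (Gm10721) without B6 females 2 and 4. It turned to 0.0377 (Gm10721) with the background of the shorter list, without the genes over 100 reads, as an added term. The correlation of Gm26870 with the background was 0.98 in B6 and 0.31 in 129 with the Krtap and Lce list, and 0.94 in B6 without the genes over 100 reads. The value in 129 rests on 3 reads in female 4 and 1 read in male 3, as the other 129 mice had no read on that list. With the 151 genes and a mouse left out, the correlation was -0.36 to -0.13 in 129, 0.61 to 0.88 in B6, 0.66 to 0.85 in SJL and 0.72 to 0.91 in SWR. The adjusted p in B6 fell to 0.00238 without female 1. In SJL it rose over 0.05 in 7 of the 8 fits, the exception being without male 4, and in SWR without female 2 (0.0910), male 1 (0.0623) or male 4 (0.0603). The causes were not tested. Without SWR female 2 the mean normalized count in SWR fell by over 1.5 times for 9 of the 10 members, the exception being Gm10720.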

Other observations

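The X-linked families and the Y genes listed for the background were led by expressed genes. Xlr3b took 59.9% of the reads on the 80 X-linked genes, and Erdr1, a gene of the pseudoautosomal region, took 49.4% of the reads on the 1564 Y genes. Levels of these lists were therefore not compared with the members. Ciliated-cell markers were highest in 129 male 1, where Dnah5, a dynein of motile cilia, was at 272 rpm against a median of 19.96 rpm over all libraries, and Foxj1, a regulator of motile cilia, at 51.1 rpm against 3.45 rpm. B6 female 1, low in the members, had 150 rpm of Dnah5 and 44.1 rpm of Foxj1. The part of ciliated cells in the member levels was not tested.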
